A study of Rattus norvegicus with 11 samples.

Results

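The potassium channel genes were taken as every gene whose name on the array starts with Kcn, the prefix of the pore-forming and auxiliary subunits of potassium channels. There were 86 such genes on 106 non-control probes, among 35561 names on 41012 probes of the whole rat genome array. Of the 86 genes, 71 had 1 probe and 15 had more. RNA came from the medial prefrontal cortex (mPFC) of male rats aged 4 months, 1 single-colour array per rat. The 6 heroin rats had self-administered heroin intravenously in daily sessions by licking a spout. The 5 saline rats were yoked controls, which received saline infusions when a partner received heroin and had no heroin at any time. All rats then spent 14 days without drug and were killed after an extinction session, in which licking gave no infusion. Both groups went through the same interval and session, but the saline rats had no heroin to abstain from. The study reported more goal-directed licking by heroin than by saline rats in that session. The part of this behaviour in the values below was not tested. A rat model of this kind compares voluntary heroin intake with passive saline, and no rat here received passive heroin.

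Potassium channels let potassium leave or enter the cell, and in most neurons they set the resting potential, shape and end the action potential and limit repetitive firing. The voltage-gated families Kcna, Kcnb, Kcnc and Kcnd open on depolarization, while the Kcnf, Kcng, Kcns and Kcnv subunits form no working channel alone and modify Kcnb channels. Kcnq channels carry the slow M-current, inward rectifiers (Kcnj) hold the membrane near rest, 2-pore channels (Kcnk) carry leak, and the Kcnm, Kcnn and Kcnt families are opened by calcium or sodium inside the cell. The Kir3 channels, built from Kcnj3, Kcnj5, Kcnj6 and Kcnj9, are opened by Gi/o-coupled receptors, of which the mu opioid receptor is one.

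Several of these genes were measured by more than 1 probe of 60 bases, and where the probes of a gene differed the probe itself matters. The first 30 bases of the 4 Kcnj3 probes are shown because these probes gave different answers. The files place them in rat build rn3 at chr3:36965600-36965659 (A_44_P247906), chr8:70763037-70763096 (A_44_P452282), chr8:70761072-70761131 (A_44_P452163) and chr8:70766491-70766550 (A_43_P12612).
Kcnj3 A_44_P247906: ctgggacatcttgacgaacatgcagccgat
Kcnj3 A_44_P452282: tgtgtactaacatagattttcctatacatt
Kcnj3 A_44_P452163: acccctccgtacagtgtgaaagagcaggaa
Kcnj3 A_43_P12612: gatgatgttaaaagtcagggtaccacaagc
The 3 probes on chromosome 8 carry RefSeq accessions of Kcnj3, but in rn3 they lie among probes named Herc1_predicted, and the RefSeq table of assembly GRCr8 puts Kcnj3 and Herc1 on different chromosomes. The 4th, on chromosome 3, was named by the array from a record that the RefSeq table does not hold.

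Kcng2 had a pair of overlapping probes, at chr18:77263883-77263942 (A_44_P536779) and chr18:77263923-77263982 (A_44_P536780). For the first, bases 1 to 30 are shown, and for the second, bases 31 to 60. Capitals mark the 20 bases the 2 probes share.
Kcng2 A_44_P536780: cgctcgtgcaCCTGGCTGAGCGCGAGCTGG
Kcng2 A_44_P536779: CCTGGCTGAGCGCGAGCTGGgcgctcaccg
The 2 Kcnq5 probes, at chr9:20341161-20341220 (A_44_P953483) and chr9:20293598-20293657 (A_44_P520136), are shown because only the first passed the thresholds.
Kcnq5 A_44_P953483: tgtaggtttagatagtgtccatattggaat
Kcnq5 A_44_P520136: atagcagttgtttctgcaaaaactcagggt
The place of the probes within the transcripts (exon, intron or untranslated region) was not analysed here, nor was the strand that each probe matches. By accession, 85 of the 106 Kcn probes matched the RefSeq table and all 85 had the same symbol there. The Kcng2 and Kcnq5 probes were among those that keep only the array's own name.

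Signals are given in array medians, that is, the intensity of a probe divided by the 50th percentile of all non-control probes on that array. Changes are heroin minus saline on the log2 scale. A probe was tested if the scanning software scored it well above background on all 11 arrays, which left 78 Kcn probes of 66 genes. Another 22 Kcn probes were well above background on some arrays only and 6 on none. No tested probe was left in 20 genes, among them all 4 Kcne genes and Kcnrg, and Kcnk3 (a leak channel, 3 heroin and 2 saline arrays). Across the arrays, 81 to 99 Kcn probes were well above background. A probe is called past both thresholds below when limma gave an unadjusted p under 0.02 and the change was at least 1.4-fold, the cut-offs of the study's methods.

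In heroin against saline rats no Kcn probe, and no probe of the array, reached an adjusted p below 0.263 (limma, Benjamini-Hochberg over 25555 probes). Both thresholds were passed by 6 of the 78 Kcn probes (7.69%), beside 2.72% of all tested probes. The 6 probes belonged to 5 genes. Higher in heroin rats were 4 probes (5.13% of the Kcn probes, 1.79% of all probes), namely Kcng2, Kcng3, Kcnq5 and 1 Kcnj3 probe. Lower were 2 probes (2.56% of the Kcn probes, 0.927% of all probes), namely Kcnj2 and another Kcnj3 probe. At an unadjusted p under 0.05 there were 14 Kcn probes, or 17.9%, against 18.5% of all probes. When the probes of a gene were averaged, 2 of 66 Kcn genes (3.03%), Kcng3 and Kcnj2, passed both thresholds, beside 2.46% of all 21757 names.

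The whole array was shifted towards heroin under this scaling, and the Kcn probes moved with it. The median change of the 78 probes was 0.14 and that of all tested probes 0.18. Of the Kcn probes, 56 were higher and 22 lower, or 71.8% higher, against 78.7% of all probes. Measured from the array's own median change, 36 Kcn probes lay above it and 42 did not. After quantile normalization, which gives all arrays the same distribution, 36 were higher and 42 lower, with a median of -0.010 for the Kcn probes and 0.013 for all. Both thresholds were then passed by 4 Kcn probes (5.13%), of Kcng2, Kcng3 and Kcnj3 upwards and of Kcnj2 downwards, beside 1.79% of all probes. Scaling to the 75th percentile put 28 Kcn probes higher and 50 lower, with a median of -0.074 for the Kcn probes and -0.034 for all. No Kcn probe was then higher and 2 were lower (Kcnj2 and Kcnj3) past both thresholds, 2.56% of the Kcn probes beside 3.05% of all, so the division into 4 higher and 2 lower depends on the scaling. Small positive values below cannot be told apart from this shift of the array. Scaling to the 75th percentile lowers every probe by the same 0.22.

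**Figure D1:**
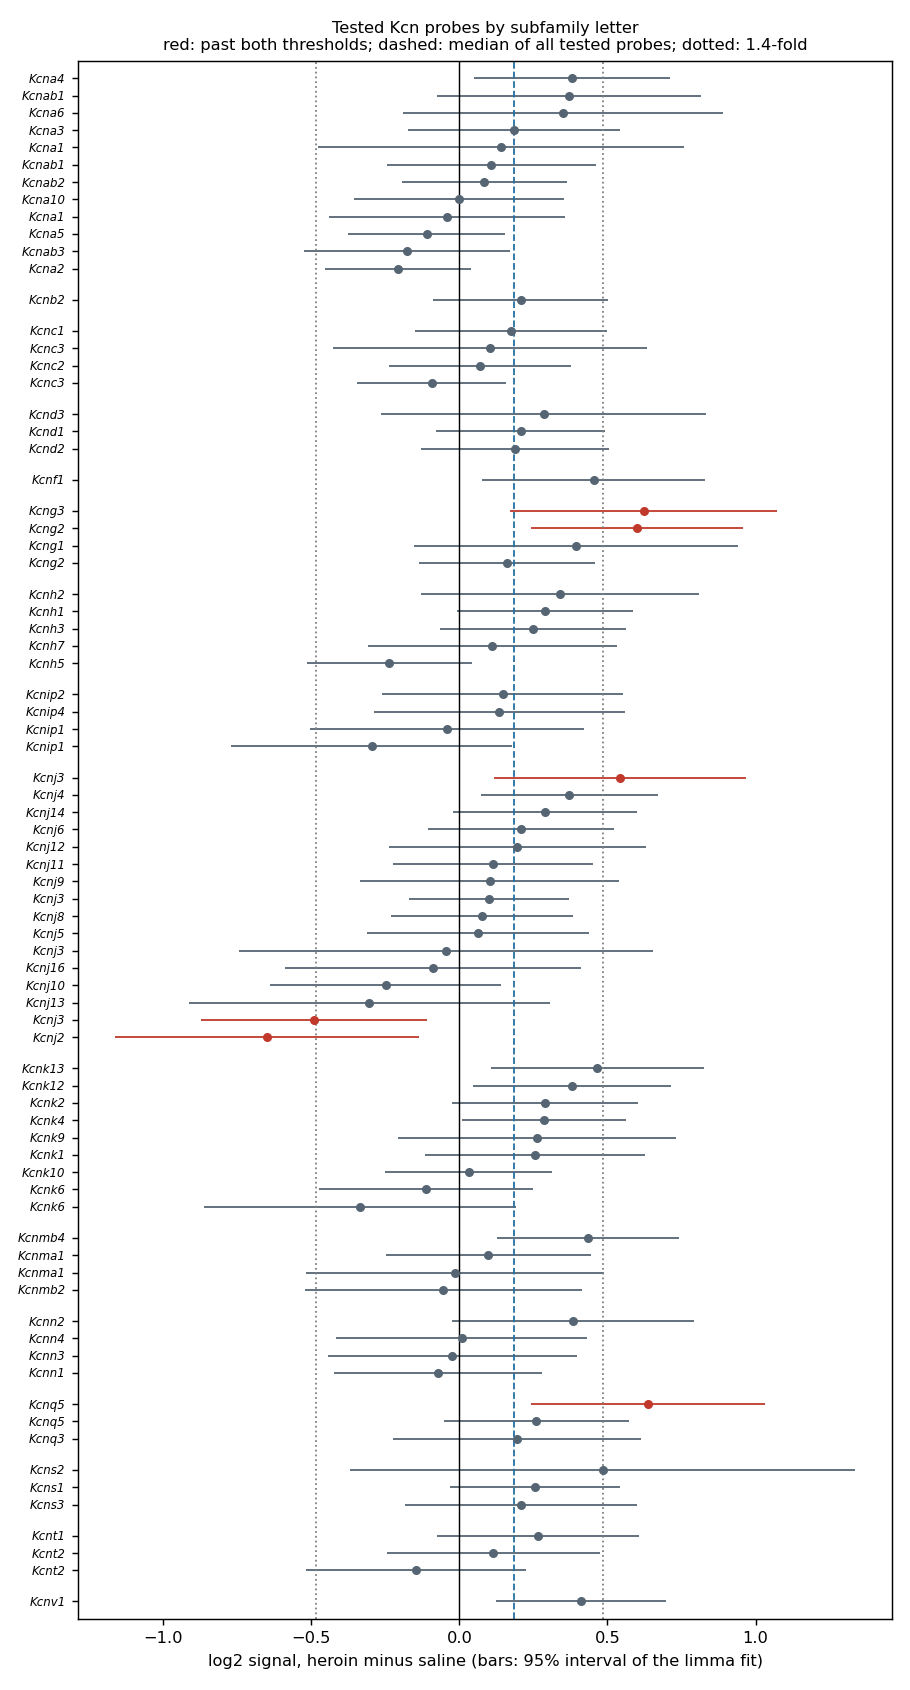
Change in signal between heroin and saline rats for 77 of the 78 tested Kcn probes, grouped by the letter after Kcn. Points are log2 differences and bars 95% intervals of the limma fit over 6 heroin and 5 saline rats. Points in red passed both thresholds. The dashed line is the median of all tested probes (0.18) and the dotted lines are at 1.4-fold. Most intervals cover both 0 and the dashed line.

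The modifier subunits Kcnf, Kcng, Kcns and Kcnv held 2 of the 4 probes that were higher past both thresholds. These letters were pooled for their shared role. There were 10 such genes on the array, of which 8 had a tested probe. All 9 tested probes were higher in heroin rats, where 78.7% of all tested probes were. The 3 tested Kcnq probes were all higher too. The median change of the 9 was 0.41 against 0.18 for the array, with a range of 0.16 to 0.62. Of the 9 probes, 4 had an unadjusted p under 0.05 (Kcng2, Kcng3, Kcnf1 and Kcnv1), where 18.5% of all tested probes did. After quantile normalization 8 of the 9 were higher, with a median of 0.20 against 0.013 for the array. The 2-pore (Kcnk) probes then had 7 of 9 higher. After scaling to the 75th percentile 7 of the 9 modifier probes were higher, and 6 of the 9 Kcnk probes. The unadjusted limma p after quantile normalization was 0.0031 for Kcng2, 0.0088 for Kcng3, 0.092 for Kcnf1 and 0.17 for Kcnv1. With the 75th percentile it was 0.015, 0.068, 0.19 and 0.11, so the number under 0.05 depends on the scaling.

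Kcng2, a modifier of Kcnb channels, had signals of 0.443, 0.703, 0.763, 0.721 and 0.488 array medians in saline rats 2 to 6 with probe A_44_P536779. In heroin rats 1 to 6 they were 0.910, 0.717, 1.070, 0.882, 1 and 0.9996. Only heroin rat 2 fell within the saline range. The mean was 0.624 ± 0.147 (SD, n = 5) in saline and 0.930 ± 0.124 (SD, n = 6) in heroin rats, a log2 change of 0.60 (SE 0.17). The exact permutation test over the 462 divisions of the rats gave p = 0.00866, two-sided, where the smallest possible is 0.00216. The change was 0.69 after quantile normalization. The overlapping probe A_44_P536780 was well above background in 6 heroin but 4 saline arrays and so was not tested with the rest. Its signals ran from 0.252 to 0.698 in saline and from 0.748 to 1.221 in heroin rats, and the groups did not overlap. It was detected throughout in the heroin group alone, and it shares bases with A_44_P536779, so its values are given only as a description. A neighbouring probe, A_44_P536774 (chr18:77263566-77263625), gave 0.16 (SE 0.14), with overlapping groups, and -0.057 after scaling to the 75th percentile. The 4th Kcng2 probe, A_42_P520472 (chr18:77291957-77292016), was above background on 1 heroin and 4 saline arrays and was not tested. It went the other way, with a mean of 0.453 in saline and 0.277 in heroin rats. Its signals ran from 0.277 to 0.759 in saline and from 0.195 to 0.361 in heroin rats, and the groups overlapped. The average of the 2 tested Kcng2 probes was 0.38 higher (SE 0.12), short of 1.4-fold.

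Kcng3, another modifier of Kcnb channels, had 1 probe (A_44_P325525, chr6:6947835-6947894 in rn3). Its saline signals were 0.714, 0.329, 0.445, 0.834 and 0.563 in rats 2 to 6. Its heroin signals were 0.832, 0.909, 0.994, 0.924, 0.635 and 0.812 in rats 1 to 6. In 3 heroin rats it was above the highest saline rat, and 3 were within the saline range. The change was 0.62 (SE 0.21, exact permutation p = 0.0281), and 0.70 after quantile normalization. Among the modifiers that did not pass both thresholds, Kcnf1 gave 0.45 (SE 0.18) and Kcnv1 0.41 (SE 0.13), and these became 0.31 and 0.17 after quantile normalization. Kcns1 gave 0.26 (SE 0.14). Kcnb2, a delayed rectifier pore with which such modifiers assemble, gave 0.21 (95% interval -0.088 to 0.50), close to the array's own shift.

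**Figure D2:**
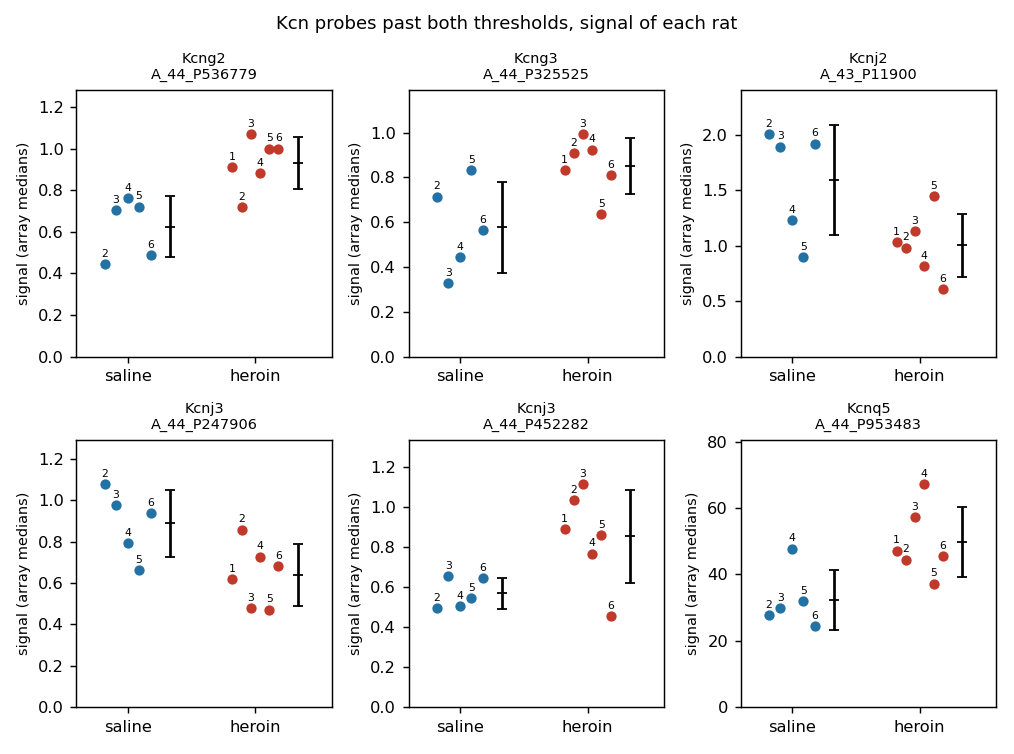
Signal in array medians (linear axis from 0) of each rat for the 6 Kcn probes past both thresholds. Each point is 1 rat with its number, and the bar beside each group is the mean ± SD of 5 saline or 6 heroin rats. The groups overlap in every panel, through a single rat for Kcng2 (heroin 2), Kcnj3 A_44_P452282 (heroin 6) and Kcnq5 (saline 4).

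Among the 16 tested probes of inward rectifiers, 3 passed both thresholds, beside 2.72% of all tested probes, and 2 of the 3 were probes of Kcnj3 with opposite signs. Kcnj2 (Kir2.1), a strong rectifier that keeps the membrane near its resting potential, had the most negative change of any tested Kcn probe (A_43_P11900, chr10:100590477-100590536). Its signals were 2.006, 1.893, 1.234, 0.899 and 1.920 in saline rats 2 to 6. They were 1.030, 0.983, 1.132, 0.817, 1.447 and 0.611 in heroin rats 1 to 6. In 3 saline rats it lay above every heroin rat, and saline rat 5 lay below 4 of the heroin rats. The change was -0.65 (SE 0.24, exact permutation p = 0.0541) and -0.72 after quantile normalization. The related Kir2 genes Kcnj4, Kcnj12 and Kcnj14, added here after their values were seen, gave 0.37 (SE 0.14), 0.20 (SE 0.20) and 0.29 (SE 0.15). The difference between these genes and Kcnj2 was not tested.

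Kcnj3 (Kir3.1, also GIRK1) is the subunit that joins most Kir3 channels of the brain. The 4 probes that carry its name gave different values. Probe A_44_P247906 had signals of 1.076, 0.977, 0.793, 0.664 and 0.936 in saline rats 2 to 6. It had 0.617, 0.858, 0.479, 0.727, 0.471 and 0.679 in heroin rats 1 to 6. The heroin rats were mostly lower, by -0.49 (SE 0.18, exact permutation p = 0.0390), with 3 of them below all saline rats. Probe A_44_P452282 went the other way. Its signals were 0.495, 0.654, 0.502, 0.542 and 0.643 in saline and 0.889, 1.033, 1.112, 0.766, 0.858 and 0.455 in heroin rats, with 5 heroin rats above all saline rats and heroin rat 6 below them. The change was 0.54 (SE 0.20, exact permutation p = 0.0411).

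The remaining 2 Kcnj3 probes did not pass either threshold. Probe A_43_P12612 had means of 57.1 ± 6.89 (SD, n = 5) in saline and 61.1 ± 6.41 (SD, n = 6) in heroin rats, a change of 0.099 with a 95% interval of -0.17 to 0.37. Probe A_44_P452163 gave -0.045 with a wide interval, -0.74 to 0.65, and saline rat 2 (32.4) and heroin rat 6 (21.7) stood below the others of their groups. These 2 probes had signals 231 and 255 times the lowest signal that was well above background on the same arrays, while the probes that passed both thresholds had 2.92 times (A_44_P247906) and 2.84 times (A_44_P452282). The average of the 4 Kcnj3 probes was 0.027 (SE 0.15). This average includes A_44_P247906, which had no match in the RefSeq table. Over the whole family, 10 genes had more than 1 tested probe. The gap between the highest and lowest change was 1.03 for the Kcnj3 probes and 0.11 to 0.44 for the other 9 genes. Kcnj3 had 4 tested probes and each of the others 2, so these gaps are not like for like.

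The other 3 Kir3 genes gave changes near 0 or near the array's shift. Kcnj5 ran from 1.32 to 2.52 in saline and from 1.63 to 2.58 in heroin rats, a change of 0.062 (95% interval -0.31 to 0.44). Kcnj6, the main partner of Kcnj3 in many neurons, ran from 4.22 to 6.86 and from 4.68 to 7.06, a change of 0.21 (-0.11 to 0.52). A second Kcnj6 probe was above background on no array. Kcnj9 ran from 9.72 to 15.7 and from 8.03 to 19.4, a change of 0.10 (-0.34 to 0.54). The groups overlapped for all 3 genes, and the intervals of Kcnj6 and Kcnj9 include a change of 1.4-fold. After quantile normalization 6 of the 7 tested Kir3 probes were lower in heroin rats, with a median of -0.14, against 0.099 as first scaled. Of the 7, 4 were probes of Kcnj3. The other inward rectifiers then had 7 of 9 tested probes lower, also with a median of -0.14, and all tested Kcn probes 42 of 78.

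**Figure D3:**
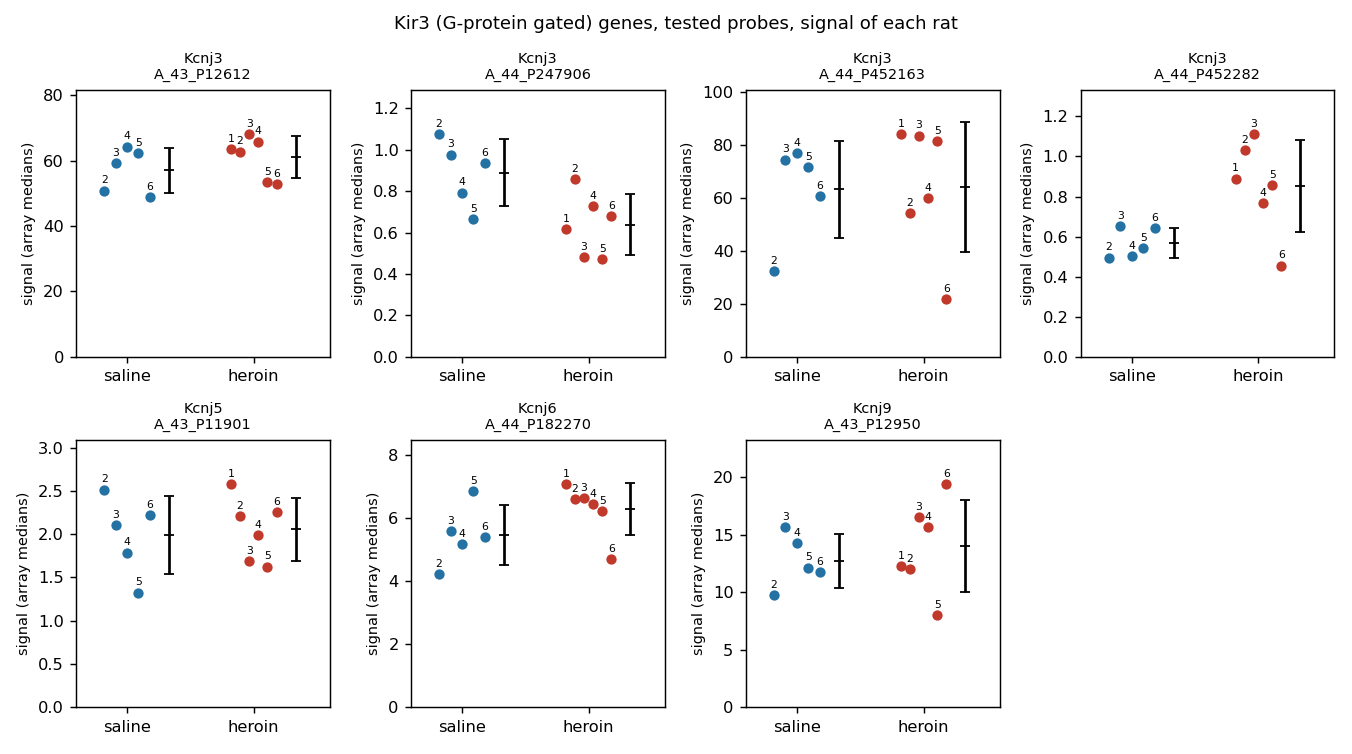
Signal in array medians (linear axis from 0) of each rat for the 7 tested probes of the Kir3 genes Kcnj3, Kcnj5, Kcnj6 and Kcnj9. Points carry the rat number and bars are mean ± SD of 5 saline or 6 heroin rats. The 4 Kcnj3 panels differ in direction, from -0.49 for A_44_P247906 to 0.54 for A_44_P452282.

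Other inward rectifiers belong to glia and vessels. Kcnj10 (Kir4.1), the main potassium channel of astrocytes, gave -0.25 (95% interval -0.64 to 0.14), and its partner Kcnj16 -0.089 (-0.59 to 0.41). Kcnj8, the Kir6.1 pore of vascular KATP channels, gave 0.077 (-0.23 to 0.38). None passed a threshold. Fewer cells of a type and less RNA per cell cannot be told apart in tissue of this kind.

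Kcnq5, a pore subunit of the M-current, which restrains repetitive firing, had the most positive change of any tested Kcn probe (A_44_P953483). Signals were 27.8, 29.9, 47.8, 32.0 and 24.4 in saline rats 2 to 6. They were 47.2, 44.5, 57.4, 67.2, 37.3 and 45.6 in heroin rats 1 to 6. All heroin rats were above 4 of the saline rats, and saline rat 4 lay within the heroin range. The means were 32.4 ± 9.07 (SD, n = 5) and 49.8 ± 10.7 (SD, n = 6), a change of 0.64 (SE 0.19, exact permutation p = 0.0195). It was the one probe of the 6 with a signal far over background, 161 times the lowest signal that was well above it; the other 5 lay between 2.81 and 5.08 times, below the 13.7 times of the median tested Kcn probe. After quantile normalization the change was 0.39, short of 1.4-fold. The second Kcnq5 probe, A_44_P520136, gave 0.26 (SE 0.15), and the average of both was 0.45 (SE 0.15), also short of 1.4-fold. Kcnq3, which pairs with Kcnq5, gave 0.19 (95% interval -0.22 to 0.61).

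Kcnmb4 was the only tested Kcn probe with no overlap between the groups (1 of 78, or 1.28%, beside 1.78% of all probes). It is the auxiliary beta subunit of the large-conductance calcium-activated (BK) channel found mainly in neurons, where it slows the opening of the channel. Signals were 59.4, 50.6, 55.2, 56.5 and 49.2 in saline rats 2 to 6 and 72.4, 66.3, 73.6, 65.5, 61.8 and 105.6 in heroin rats 1 to 6. The change was 0.43 (SE 0.14, exact permutation p = 0.00433), below 1.4-fold, and 0.18 after quantile normalization. The BK pore gene Kcnma1 gave -0.015 (SE 0.24) and 0.097 (SE 0.16) with its 2 probes. The small-conductance genes Kcnn1 and Kcnn3, whose channels carry the afterhyperpolarization, gave -0.072 and -0.024, and Kcnn2 gave 0.38 (SE 0.19). The sodium-activated Kcnt1 gave 0.27 (SE 0.16). None of the 11 tested probes of this group passed both thresholds, and their median was 0.0082, and -0.11 after quantile normalization.

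The 2-pore leak channels had a median change of 0.26 over 9 tested probes, of which 7 were higher and none passed both thresholds. Kcnk13 came closest, with a range of 7.43 to 12.4 in saline and 10.1 to 16.04 in heroin rats and a change of 0.47 (SE 0.17), just under 1.4-fold (log2 0.49). The stretch- and lipid-sensitive Kcnk2 gave 0.29 (SE 0.15), Kcnk1 0.25 (SE 0.17) and the acid-sensitive Kcnk9 0.26 (SE 0.22). After quantile normalization the median of the 9 probes was 0.050.

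Among the voltage-gated pores no probe of Kcna, Kcnb, Kcnc, Kcnd or Kcnh passed both thresholds. Kcna4, which gives a fast-inactivating current, was 0.38 higher (SE 0.15). Kcna2, a subunit of axonal channels, had a signal of 3.83 to 4.28 in saline and 2.96 to 3.98 in heroin rats. Its change was -0.21 (SE 0.12, exact permutation p = 0.0195) and -0.41 after quantile normalization. The axonal Kcna1 gave -0.041 and 0.14 with its 2 probes, and the auxiliary beta subunit Kcnab1 0.11 and 0.37. The A-current pores gave 0.21 (Kcnd1), 0.19 (Kcnd2) and 0.28 (Kcnd3), and their calcium-binding partners 0.15 (Kcnip2), 0.14 (Kcnip4) and -0.041 and -0.30 (2 probes of Kcnip1). No probe named Kcnip3 was on the array. The Kcnc genes of fast-spiking cells gave 0.18 (Kcnc1) and 0.070 (Kcnc2), and Kcnh1 gave 0.29 (SE 0.14). The 27 tested probes of the 24 Kcn genes not named here ran from -0.34 to 0.48, with 17 higher and none past both thresholds.

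**Figure D4:**
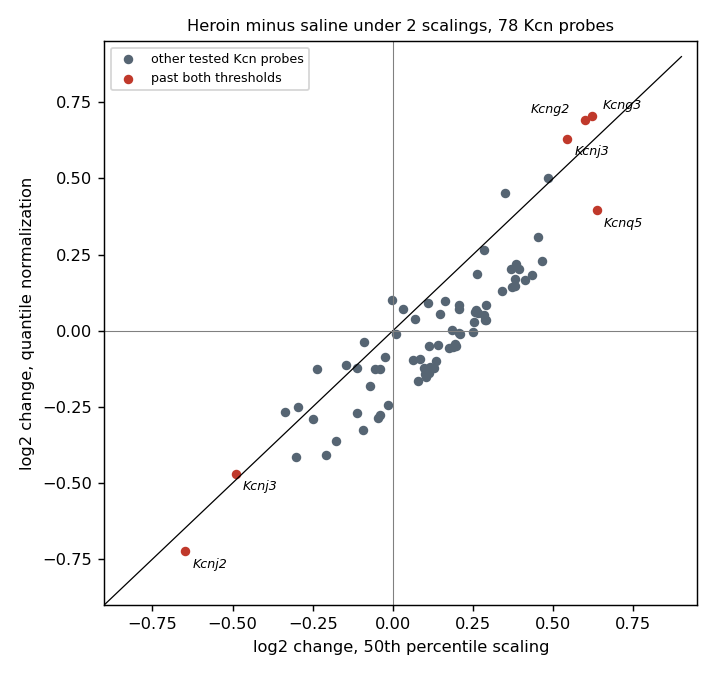
Log2 change, heroin minus saline, of the 78 tested Kcn probes after scaling to the 50th percentile (x axis) and after quantile normalization (y axis), with the line of equality. Points in red passed both thresholds under the first scaling. Most points lie below the line, and the median moved from 0.14 to -0.010.

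Leaving out single rats moved the calls. Kcnq5 A_44_P953483 passed both thresholds without any 1 of the 11 rats and Kcng2 A_44_P536779 in 10 of 11, the exception being saline rat 2 (0.48). Kcng3 passed in 7 of 11. Kcnj2 passed in 4 of 11 and was lost without saline rat 2, 3 or 6 or heroin rat 1, 2, 4 or 6, with changes from -0.84 to -0.52. Kcnj3 A_44_P247906 passed in 5 of 11, lost without saline rat 2, 3 or 6 or heroin rat 1, 3 or 5, and A_44_P452282 in 3 of 11, kept without saline rat 3, saline rat 6 or heroin rat 6. In every case the sign stayed. The number of Kcn probes past both thresholds was 2 without saline rat 2, 3 without saline rat 3, heroin rat 1 or heroin rat 3, and 11 without saline rat 5. The count over the whole array moved too, from 694 with all rats to 343 without saline rat 2 and 2352 without saline rat 5. It was 393 without saline rat 3, 634 without heroin rat 1 and 476 without heroin rat 3. The 5 probes named above as near background also lost their call, with their sign kept, under a background correction of the mean spot signal (normexp).

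**Figure D5:**
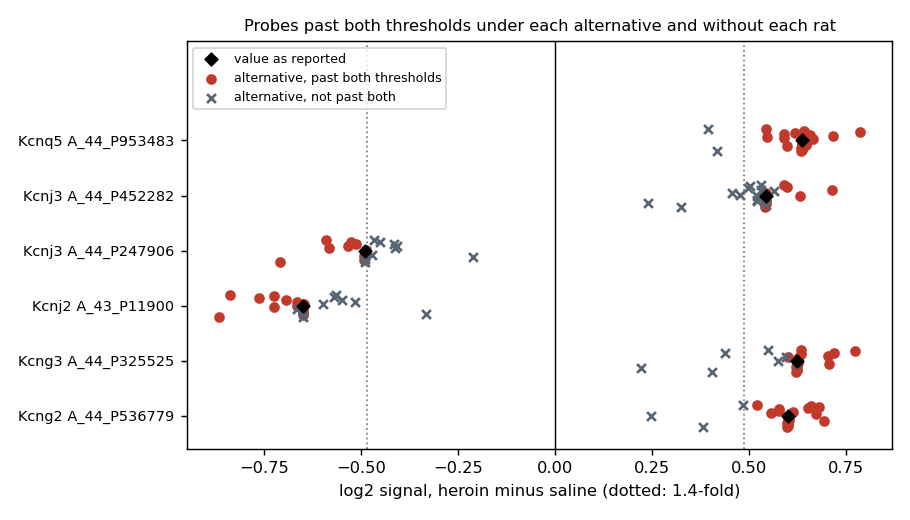
Log2 change, heroin minus saline, of the 6 Kcn probes past both thresholds, as reported (black diamonds), under each alternative processing and without each rat in turn (red circles where both thresholds were passed, grey crosses where not). Dotted lines are at 1.4-fold. No value crosses 0, and Kcnq5 and Kcng2 have the fewest crosses.

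The file headers show that heroin and saline arrays of the same number, 2 to 6, were scanned together, with heroin 1 on its own. Within these 5 scans, Kcng2 A_44_P536779 was higher in the heroin rat by 0.21 to 1.04 and Kcnq5 A_44_P953483 by 0.22 to 0.94, in 5 of 5. Kcnj3 A_44_P247906 was lower in 5 of 5, by -1.03 to -0.12. Kcng3 was higher in 4 of 5 (-0.39 to 1.59), Kcnj2 lower in 4 of 5 (-1.65 to 0.69) and Kcnj3 A_44_P452282 higher in 4 of 5 (-0.50 to 1.06). With the shared scan as a block, 5 of the 6 probes passed both thresholds, and Kcnj3 A_44_P452282 did not (0.52). All saline arrays were at array position 3 and all heroin arrays at position 4, so position and group cannot be told apart. Heroin array 6 had the lowest median intensity (42.7, against 58.0 to 83.2 on the other arrays) and the fewest Kcn probes above background (81).

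Channel partners without a Kcn name were counted in the same fit. Of 29 genes for binding partners, receptors, G proteins, sodium pumps and potassium transporters, 22 were on the array by name, with 36 tested probes. Past both thresholds, 2 of the 36 probes were higher and none lower, beside 1.79% higher and 0.927% lower of all tested probes. Among them was Gnai1, a G protein subunit that couples opioid receptors to Kir3 channels (0.63, SE 0.21). Its groups overlapped, with 1.44 to 3.72 in saline and 2.66 to 3.47 in heroin rats. No probe of the other G protein genes tested, Gnb1, Gng2 and Gng3, passed both thresholds. The median of the 36 probes was 0.26, and 0.030 after quantile normalization. The opioid receptor genes gave -0.17 (Oprm1, SE 0.28) and 0.11 (Oprd1, SE 0.21), and the sulfonylurea receptor genes of KATP channels 0.34 (Abcc8, SE 0.12) and 0.57 (Abcc9, SE 0.23).

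Signals of chosen markers of cortical cell types, and of striatum, choroid plexus and blood, were summed over the genes on the array. Numbers in brackets are genes on the array of those chosen. Only 2 of the 4 choroid plexus genes had a tested probe, and 5 of the 6 microglial and 5 of the 6 striatal genes. The 3 excitatory neuron markers on the array (of 6 chosen) were tested, with summed signals of 234 to 323 in saline and 268 to 386 in heroin rats. Interneuron markers (6 of 6) summed to 277 to 383 and 352 to 459, with 1 of 8 tested probes, that of Vip (0.49, and 0.25 after quantile normalization), past both thresholds, beside 2.72% of all probes. Astrocyte markers (5 of 6) summed to 337 to 521 and 404 to 551, oligodendrocyte markers (4 of 6) to 82.7 to 256 and 75.9 to 269, endothelial markers (5 of 6) to 60.8 to 107 and 84.8 to 120, and mural markers (4 of 5) to 23.98 to 25.5 and 21.4 to 36.6. Microglial markers (6 of 6) summed to 85.2 to 138 and 81.8 to 176, striatal markers (6 of 6) to 17.6 to 37.8 and 20.1 to 28.5, choroid plexus markers (4 of 5) to 3.02 to 4.23 and 2.70 to 7.23, and blood markers (2 of 3) to 7.53 to 20.3 and 6.94 to 20.2. Apart from Vip no marker probe passed both thresholds, and the choroid plexus gene Kl was above background on no array. The part of these cell types in the Kcn values was not tested.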

How the data were processed

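Total RNA from the mPFC of 6 heroin and 5 saline rats was labelled with Cy3 and hybridised by the authors to Agilent whole rat genome arrays. The deposited spot intensity was the background-corrected output of Feature Extraction 9.5.1.1, as the file headers state, and was not scaled between arrays. A second deposited table held a relative value per probe and rat, a ratio the authors made with GeneSpring (values under 5 set to 5, division by the 50th percentile of the array and by the median of the gene). It served as an alternative only.

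From the intensities, control spots and spots marked as non-uniform or outlying (99 to 231 per array, no Kcn spot) were left out, values under 5 were set to 5, log2 was taken, spots of a probe were averaged and the array's 50th percentile was subtracted. Tested probes were well above background (at least 0.5 of spots) on all 11 arrays, with usable spots on at least 2 arrays per group. No Kcn spot was saturated. Groups were compared with limma (version 3.58.1, R 4.3.3; lmFit and eBayes, two-sided), and p-values were adjusted by Benjamini-Hochberg across all 25555 probes. The fit was checked on simulated data. Each of the 78 Kcn probes also had an exact permutation test over rats, whose p is unadjusted. Limma replaced the unequal-variance test of the methods, which was run as an alternative. The number of arrays limits the precision.

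The channel genes, the partner and marker lists and the naming rule were chosen with earlier results of these data known. Named were genes with a probe past both thresholds, the gene with the smallest p of each subfamily letter, and fixed genes by role. Replicate numbers come from the sample labels, which do not say what they share. The deviations of same-numbered rats from their group means had correlations of 0.38, -0.13, 0.35, 0.02 and -0.24 for numbers 2 to 6. Same-numbered arrays also shared a scan, so these values cannot show whether such rats were yoked to each other. The numbers were not taken to pair the rats. Values of a few single genes of these lists are not reported here, though they enter the counts. The methods describe 12 arrays, of which 11 were analysed here.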

Additional observations from a re-analysis of the deposited data

Results flagged for a closer look

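Among the named Kcn genes 8 values stood apart from the rest of their group by a gap larger than Dixon's 95% limit. Over the probes reported here, 84 groups were checked, and chance alone gives about 1 in 20. The signals below are in array medians, each with the nearest other rat of its group.

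Of the 8, 3 came from heroin rat 6. Its Kcnmb4 signal was the highest of the heroin group, 105.6 against 73.6, its Kcnj6 signal the lowest, 4.68 against 6.21, and its Kcnj3 signal with probe A_44_P452163 the lowest, 21.7 against 54.3. Saline rat 2 was the lowest of its group with the same Kcnj3 probe, 32.4 against 60.7. Heroin rat 5 had the lowest Kcng2 signal with probe A_44_P536774, 1.04 against 1.35. Heroin rat 3 had the highest Kcnc1 signal, 14.3 against 10.4. Saline rat 5 had the highest Kcna4 signal of its group, 9.08 against 6.37, and saline rat 4 the highest Kcnip1 signal with probe A_44_P191742, 2.36 against 1.62. None of the 6 probes past both thresholds was among them.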

How the results depend on the processing

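The signs of the 6 Kcn probes past both thresholds held under all alternatives run; the number past both thresholds, 6 as reported (4 higher, 2 lower), did not. It was 2 with scaling to the 75th percentile (0 higher, 2 lower; median change of the Kcn probes -0.074), 1 with normexp (1 higher, 0 lower), 2 with the methods' t-test (2 higher, 0 lower) and 2 when the probes of a gene were averaged (1 higher, 1 lower). The only lower probe was that of Kcnj2 after quantile normalization and with the trend and robust options of eBayes. With no detection filter 1 probe was lower, but it was that of Kcnq1, well above background on 0 heroin and 2 saline arrays. Kcnj2 and Kcnj3 A_44_P247906 lost their calls there. Without each rat in turn the number ran from 2 to 11, higher probes from 2 to 9 and lower probes from 0 to 2, and the median change from 0.10 to 0.24. With a replicate block, restricted to the numbers present in both groups, 5 Kcn probes passed both thresholds and the median change was 0.13. The block took away the call of Kcnj3 A_44_P452282 and no other Kcn call. The replicate number was the best match of a heroin rat for numbers 2 and 4 only. Over the whole array 694 probes passed both thresholds, 126 with normexp, 308 with the methods' t-test, 457 with quantile normalization, 779 with scaling to the 75th percentile, 1067 and 1560 with the looser and no detection filter, and 343 to 2352 without a rat. The causes were not tested. Signals near background limit 5 of the 6 probes.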
